A study of Mus musculus with 7 samples.

Results

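The cluster of miR-221 and miR-222 consists of 2 microRNA (miRNA) hairpins on the X chromosome, Mir221 and Mir222, each of which yields a mature miRNA from its 3′ arm and a minor product from its 5′ arm, marked here with an asterisk. Its members were taken by name from the deposited files: mmu-miR-221, mmu-miR-221*, mmu-miR-222 and mmu-miR-222*, written below without the prefix for mouse, which are 4 of the 756 mature miRNA sequences with a read. All 4 had reads in all 7 libraries, and all 4 passed the minimum of a mean of 10 reads that left 476 miRNAs for testing.

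The libraries are of small RNA from pooled hippocampi of adult C57BL/6 mice aged 3 to 5 months. Library 1 is labelled as non-trained controls (wildtype), library 2 as non-trained NIPP1* mice, libraries 3, 4 and 5 as trained controls, and libraries 6 and 7 as trained NIPP1* mice. NIPP1* mice carry the PP1-binding domain of a nuclear inhibitor of protein phosphatase 1 (PP1), fused to EGFP behind a tetO promoter, together with a tetracycline-dependent activator driven by the CaMKIIα promoter, so that doxycycline in the food turns the inhibitor on in forebrain neurons. Trained mice explored objects in an object recognition (NOR) task, non-trained mice were placed in the chamber alone, and tissue was taken shortly after the session. The study asked which hippocampal miRNAs change with training and with inhibition of nuclear PP1. The sources do not state which mice went into which library, so the p-values below measure only the spread between these libraries.

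A primary transcript of a miRNA cluster is cut in the nucleus into hairpins and in the cytoplasm into short duplexes, of which one strand is usually kept and the other degraded. The kept strand guides a silencing complex to messenger RNAs that pair with its seed, the bases near its 5′ end. miR-221 and miR-222 are best known from proliferating cells, vessel wall smooth muscle and endothelium, and their textbook targets are inhibitors of the cell cycle such as p27 (Cdkn1b) and the receptor Kit.

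The sequences of the 4 products are shown because they define which members act as a family. They are read on the minus strand of the mouse genome (NCBI37/mm9), 5′ to 3′, with the seed (bases 2 to 8) in capitals.
miR-221: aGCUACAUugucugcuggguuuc
miR-222: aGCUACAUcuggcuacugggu
miR-221*: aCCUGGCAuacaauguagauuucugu
miR-222*: uCAGUAGCcaguguagauccu
miR-221 and miR-222 were identical over bases 1 to 8 and at 11 of 21 positions in all (52.4%), so their shared seed, GCUACAU, goes with different 3′ ends. The 5′ arm products had seeds of their own, CCUGGCA and CAGUAGC, and matched each other at 5 of 21 positions (23.8%). Their longest common run was UGUAGAU, 7 bases. No other measured sequence of the 756 carried the seed of miR-221 and miR-222. Among 1738 mature mouse miRNAs of RefSeq (GRCm38.p6), miR-1928 was the one non-member with that seed, and no measured sequence other than the members carried the seed of either 5′ arm product.

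miR-221 lies at chrX:18723433-18723455, miR-221* at chrX:18723470-18723495, miR-222 at chrX:18724029-18724049 and miR-222* at chrX:18724066-18724086. The window of miR-222 in the deposited files is 21 bases long, while RefSeq gives the same miRNA 23 bases. The hairpins are printed with both arms in capitals, since they show how the products of 1 hairpin pair, and they equal the RefSeq hairpins base for base.
Mir221: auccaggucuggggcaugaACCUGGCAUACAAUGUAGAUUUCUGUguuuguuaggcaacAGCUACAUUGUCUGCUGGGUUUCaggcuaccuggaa
Mir222: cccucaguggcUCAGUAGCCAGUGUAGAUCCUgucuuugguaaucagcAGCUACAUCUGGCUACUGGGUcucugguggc
Mir221 spans 95 bases (chrX:18723420-18723514) and Mir222 spans 79 bases (chrX:18724019-18724097), with 504 bases between them. No other gene of the annotation (GENCODE M1) overlaps the 678 bases from one end of the pair to the other. The next gene upstream on the same strand is the lincRNA Gm14636, 10009 bases away, and the next gene downstream is the pseudogene Gm5383, 203065 bases away. In the minimum free energy fold, -42.8 kcal/mol for Mir221 and -40.7 kcal/mol for Mir222, 19 bases of miR-221 paired with miR-221*, and 16 bases of miR-222 paired with miR-222*. All 7 seed bases of miR-221 and 5 seed bases of miR-222 were paired there.

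Because the seed is shared, the same 7-base match, AUGUAGC, marks candidate sites of both miRNAs in messenger RNA. The 3′ UTRs of 5 genes known as targets are shown, each around the match, in capitals, with the first base of the match counted from the base after the stop codon.
Cdkn1b, base 2357 of 3439: uaaaagcauuggAUGUAGCauugcgcaauu
Cdkn1c, base 95 of 677: gaccuuucguucAUGUAGCaggaaccggag
Kit, base 447 of 2177: gaugggagauauAUGUAGCaagacuagaaa
Kit, base 1978 of 2177: guaaauauugaaAUGUAGCaauaaugucuu
Bbc3, base 97 of 971: uuuuucugcaccAUGUAGCauacuggacug
Timp3, base 2383 of 3604: uuaaaaucauuuAUGUAGCugagacacuuu
Cdkn1b and Cdkn1c encode cyclin-dependent kinase inhibitors, Kit a receptor tyrosine kinase, Bbc3 a protein that promotes cell death and Timp3 an inhibitor of matrix proteases. Kit held 2 matches and each of the others held 1. Only the sense strand was searched, and 1629 of 19915 genes (8.18%), each with its longest 3′ UTR, held the match at least once. In stretches as long as the UTR itself, the match occurred in 22.5% of other UTRs for Cdkn1b, 4.01% for Cdkn1c, 14.9% for Kit, 5.94% for Bbc3 and 23.5% for Timp3. These matches are descriptions of sequence, and messenger RNA was not measured here.

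Values are reads per 1000000 miRNA reads (RPM), converted from the percentages that the authors deposited for each mature locus. Each of the 4 members has 1 locus, so no reads were shared between copies, and since a read spans the miRNA no scaling by length enters. Libraries held between 7285261 and 10017748 miRNA reads. The transgene is not among the RNAs measured, so the genotype labels could not be checked. The forebrain neuron miRNAs miR-9, miR-124, miR-128, miR-138 and miR-153 summed to between 187200 and 214600 RPM. Most of this was miR-9 (107500 to 149800 RPM) and miR-128 (53960 to 71940 RPM), while miR-153 lay between 128.1 and 220.0 RPM, below miR-1 of muscle. The muscle, liver and pituitary miRNAs, which hippocampus should lack, summed to between 503.5 and 699.5 RPM, most of it miR-1 (407.2 to 606.8 RPM). The other muscle miRNA, miR-133a, lay between 12.45 and 18.9 RPM. The liver miRNA miR-122 stayed between 11.18 and 18.42 RPM, and miR-375 of pituitary between 58.9 and 75.6 RPM.

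For the trained groups, the deposited table that compares them goes against the labels. Libraries 6 and 7 rebuilt the means that the table calls trained control, with an error of 0.0187% over 319 miRNAs, against 15.6% for the libraries so labelled. Libraries 3, 4 and 5 rebuilt the table's trained NIPP1* means with an error of 0.0231%, against 18.2%. The 2 columns of means named only by letters were not used for this check. Which assignment is right was not settled here, so groups follow the labels. Values under the grouping of that table, called the grouping of the tables below, are given beside the members' differences that it changes.

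miR-221 was the most abundant member and ranked 40 among all miRNAs by mean level. It was at 3911 RPM in the non-trained control library and 3807 RPM in the non-trained NIPP1* library. The trained control libraries were at 3706, 3466 and 3303 RPM, and the trained NIPP1* libraries at 2818 and 3519 RPM. All 5 trained libraries were thus below both non-trained ones, as for 39 of the 476 tested miRNAs (8.19%), and the trained groups overlapped each other. In either direction trained and non-trained libraries were apart for 55 of the 476 (11.6%). After TMM or DESeq2 scaling, library 3 lay above library 2 for miR-221. The highest library was 1.39 times the lowest, and the level rested on 20530 to 35252 reads per library. Its neighbours in order of level were miR-342-3p at 3684 ± 285 RPM and miR-7b at 3240 ± 555 RPM, against 3504 ± 368 RPM for miR-221 (SD, n = 7), so the 3 could not be ordered beyond their spread.

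miR-222 had the same seed at a lower level and ranked 53. It was at 2100 RPM in the non-trained control library and 2169 RPM in the non-trained NIPP1* library. The trained control libraries were at 2001, 2099 and 2091 RPM, and the trained NIPP1* libraries at 1820 and 2245 RPM. The lowest and the highest of the 7 libraries were therefore both trained NIPP1*, and every other group lay between them. Its mean of 2075 ± 135 RPM (SD, n = 7) stood between miR-379 at 2214 ± 248 RPM and miR-132* at 1929 ± 193 RPM, whose ranges both overlapped that of miR-222.

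The 5′ arm of Mir221 gave miR-221* at 256.5 RPM in the non-trained control library and 264.8 RPM in the non-trained NIPP1* library. The trained control libraries were at 270.5, 257.3 and 235.2 RPM and the trained NIPP1* libraries at 243.2 and 281.6 RPM, so the groups overlapped. It ranked 135, with a mean of 258.4 ± 15.8 RPM (SD, n = 7). miR-222*, ranked 274, was the rarest member: 22.61 RPM in the non-trained control library, 25.52 RPM in the non-trained NIPP1* library, 27.32, 25.14 and 21.36 RPM in the trained control libraries, and 21.28 and 24.26 RPM in the trained NIPP1* libraries. With 155 to 243 reads per library it had the widest counting error of the 4, and its groups overlapped too.

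**Figure D1:**
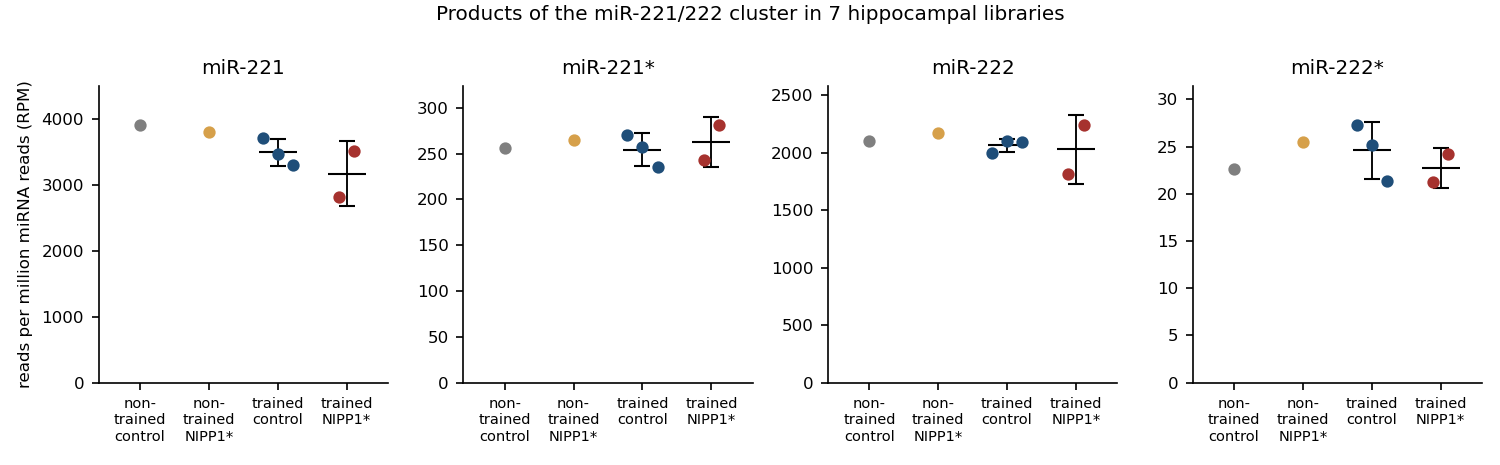
Level (RPM, linear axes from 0) of the 4 products of the miR-221 and miR-222 cluster by labelled group. Points are libraries, and bars show the mean ± SD for the groups with 2 or 3 libraries. miR-221 runs from 3911 RPM in the non-trained control library to 2818 RPM in a trained NIPP1* library, and its trained groups overlap each other. Each of its trained libraries lies below both non-trained ones, as for 39 of the 476 tested miRNAs (8.19%). For the other products trained and non-trained libraries overlap.

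The members varied little between libraries compared with most miRNAs. The SD of log2(RPM + 0.5) over the 7 libraries was 0.159 for miR-221, 0.0967 for miR-222, 0.0885 for miR-221* and 0.134 for miR-222*, where the median of the 476 tested miRNAs was 0.217. A larger SD was found for 74.4% of tested miRNAs than for miR-221, for 93.7% than for miR-222, for 95.8% than for miR-221* and for 86.1% than for miR-222*. Spread falls with level, and among the 45 tested miRNAs with a mean of 1000 to 10000 RPM the median SD was 0.151, just under that of miR-221 and above that of miR-222. These SDs mix groups and describe 7 libraries.

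**Figure D2:**
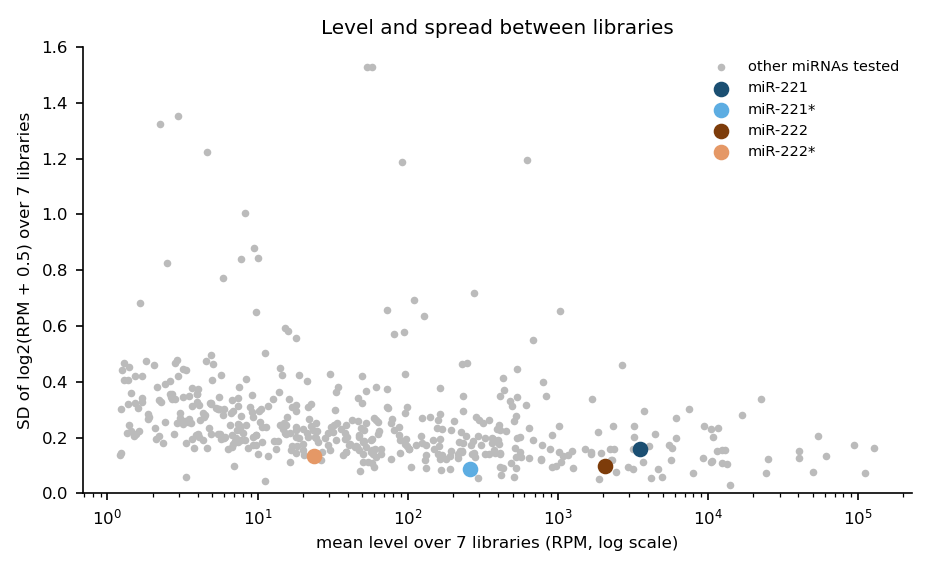
SD of log2(RPM + 0.5) over the 7 libraries against mean level (RPM, log axis) for the 476 tested miRNAs, with the 4 products of the cluster in colour. All 4 lie in the lower part of the cloud, miR-221* lowest at 0.0885 and miR-221 highest at 0.159.

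Training was compared first within controls (libraries 3, 4 and 5 against library 1). None of the 4 members passed the test, and neither did any other miRNA: limma called 0 of 476 (0%), with 28 at an unadjusted p under 0.05, edgeR called 0 and DESeq2 called 1. The count of 28 was 12 under the grouping of the tables, 108 without library 3 and 14 to 16 without any one of libraries 4 to 7. The log2 fold change of miR-221 was -0.17 ± 0.16 (SE; 95% interval -0.55 to 0.22; limma adjusted p = 0.737). That of miR-222 was -0.03 ± 0.16 (interval -0.41 to 0.35; limma adjusted p = 0.975). Of the 5′ arm products, miR-221* was at -0.01 (-0.45 to 0.42) and miR-222* at 0.11 (-0.44 to 0.66). The value of miR-222* was 0.03 without library 3, 0.21 without library 5 and 0.20 with TMM or DESeq2 scaling. The median over all tested miRNAs was -0.09. Under the grouping of the tables the differences were -0.31 for miR-221, -0.06 for miR-222, 0.03 for miR-221* and 0.01 for miR-222*. With TMM or DESeq2 scaling, and in the edgeR and DESeq2 fits, the difference of miR-221 by the labels was -0.07.

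Training in NIPP1* mice (libraries 6 and 7 against library 2) gave miR-221 a log2 fold change of -0.27 ± 0.17 (SE; 95% interval -0.69 to 0.14; limma adjusted p = 0.973). limma made 0 calls among 476 miRNAs (0%) and 21 had an unadjusted p under 0.05, while edgeR called 0 and DESeq2 called 2. The count of 21 was 9 under the grouping of the tables, 37 without library 3 and 10 without library 6. miR-222 was at -0.10 (-0.50 to 0.30), miR-221* at -0.02 (-0.48 to 0.44) and miR-222* at -0.16 (-0.75 to 0.42). Library 6 set much of this: without it the difference was -0.11 for miR-221 and 0.05 for miR-222, and without library 7 it was -0.43 and -0.25. For miR-222* the difference was -0.07 without library 6 and -0.26 without library 7. Under the grouping of the tables, miR-221 was at -0.13, miR-222 at -0.07, and both 5′ arm products at -0.06.

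Pooled over both genotypes, trained against non-trained gave miR-221 a log2 fold change of -0.22 ± 0.12 (SE; 95% interval -0.50 to 0.06), which is 0.859-fold. The unadjusted p was 0.11, which ranked 46 of 476, and the adjusted p 0.873 by limma. Here too the calls of limma numbered 0 (0%), 16 miRNAs had an unadjusted p under 0.05, edgeR called 0 and DESeq2 1. The count of 16 was 65 without library 3, 10 without library 4 and 5 without library 6. In RPM, miR-221 was the 1 member of 4 whose trained libraries all lay below both non-trained libraries, and the same held for 39 of the 476 tested miRNAs (8.19%). This separation depends on scaling. After division by TMM factors (0.9785 for library 3 and 1.034 for library 2) or by DESeq2 factors, library 3 lay above library 2. The regrouping of the trained libraries does not touch this comparison of groups, since all 5 are trained either way, and miR-221 stayed at -0.22. Over 14 alternative settings its difference ran from -0.30 to -0.14, negative in each, with adjusted p between 0.342 and 0.998, and the smallest, -0.14, was that without library 6. None of these settings left out library 1 or 2, each the only library of its group. miR-222 was at -0.06 (-0.34 to 0.21), miR-221* at -0.02 (-0.33 to 0.30) and miR-222* at -0.03 (-0.43 to 0.37), and the sign of each turned under some scaling.

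Inhibition of nuclear PP1 was compared in trained mice (libraries 6 and 7 against 3, 4 and 5). Calls by limma numbered 0 of 476 (0%), and 34 miRNAs had an unadjusted p under 0.05, with 0 calls by edgeR and 1 by DESeq2. The count of 34 was 113 without library 3 and 10 to 17 without any one of libraries 4 to 7. By the labels miR-221 was at -0.15 ± 0.13 (SE; 95% interval -0.46 to 0.16; limma adjusted p = 0.738), miR-222 at -0.03 (-0.33 to 0.27), miR-221* at 0.04 (-0.30 to 0.39) and miR-222* at -0.11 (-0.54 to 0.33). The grouping of the tables turns each of these signs, so that miR-221 would be at 0.15, miR-222 at 0.03, miR-221* at -0.04 and miR-222* at 0.11. Without library 6 the labelled difference was 0.01 for miR-221 and 0.12 for miR-222, and without library 7 it was -0.31 and -0.18. That of miR-222* was -0.01 without library 6, -0.03 without library 3 and -0.20 without library 5 or 7. Group means by label were 3168 ± 496 RPM (SD, n = 2) against 3492 ± 203 RPM (SD, n = 3) for miR-221, and 2032 ± 301 RPM against 2064 ± 54.4 RPM for miR-222, so for both the difference was smaller than the SD within the NIPP1* group.

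In non-trained mice each genotype has 1 library, so the ratio has no replicate check and its interval covers counting error only. miR-221 had a log2 ratio of NIPP1* over control of -0.04 (95% interval -0.06 to -0.02) and miR-222 one of 0.05 (0.02 to 0.08), which is 0.973-fold and 1.03-fold. The ratio was 0.05 (-0.04 to 0.13) for miR-221* and 0.17 (-0.11 to 0.46) for miR-222*. In either direction, 3 of 322 miRNAs (0.932%) reached a log2 ratio of 1 and no member did, and 84.5% of the 322 had a ratio larger in size than miR-221.

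Over both training states, NIPP1* against control was -0.09 (95% interval -0.38 to 0.19) for miR-221, 0.01 (-0.27 to 0.29) for miR-222, 0.04 (-0.27 to 0.36) for miR-221* and 0.03 (-0.37 to 0.43) for miR-222*. The value of miR-221 was -0.01 without library 6 and -0.17 without library 7. limma called 0 of 476 (0%), with 6 at an unadjusted p under 0.05, and edgeR and DESeq2 called 0 as well. The count of 6 was 37 under the grouping of the tables, 17 without library 3 and 1 without library 6. Under the grouping of the tables these were 0.05 for miR-221, 0.04 for miR-222, 0.00 for miR-221* and 0.14 for miR-222*. The difference of the training effect between the genotypes was -0.11 (-0.68 to 0.46) for miR-221, -0.08 (-0.63 to 0.48) for miR-222, 0.00 (-0.63 to 0.63) for miR-221* and -0.28 (-1.08 to 0.52) for miR-222*. The grouping of the tables gave 0.19, -0.02, -0.09 and -0.07 in the same order, so the sign for miR-221 turned. limma called 0 of 476 (0%) in this comparison, with 37 at an unadjusted p under 0.05, edgeR called 0 and DESeq2 2. The count of 37 was 6 under the grouping of the tables, 85 without library 3, and 21 to 24 without library 4, 6 or 7.

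**Figure D3:**
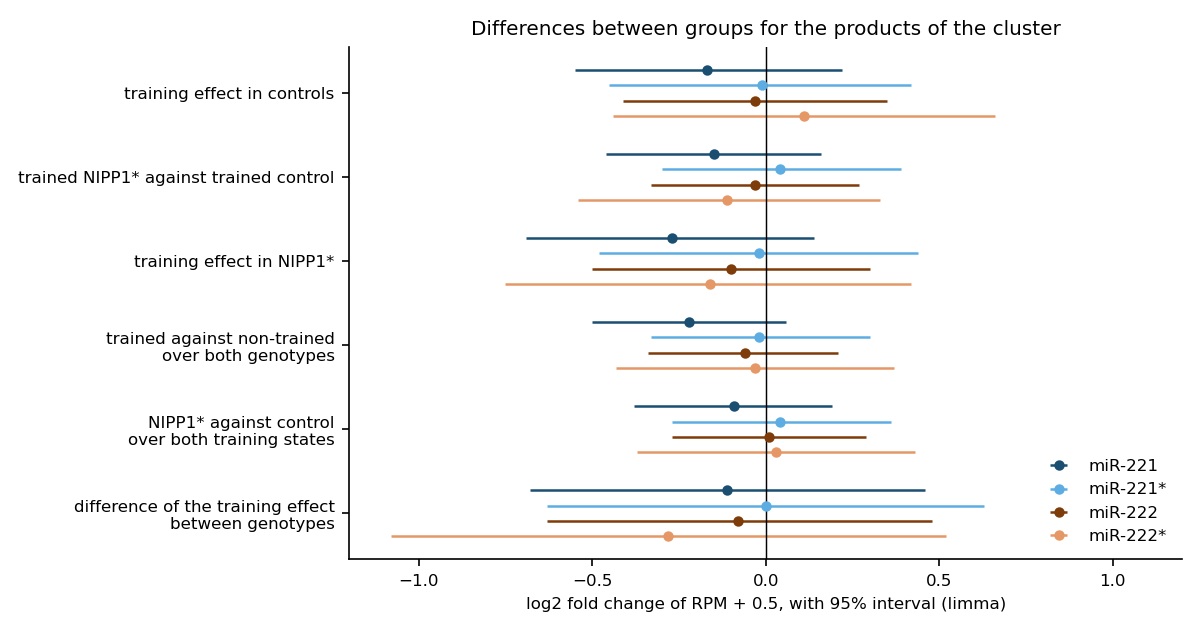
Log2 fold change of RPM + 0.5 with its 95% interval (limma, all 7 libraries in one model) for the 4 products in 6 comparisons, the first-named group relative to the second. Every interval includes 0; the interval of miR-221 for trained against non-trained over both genotypes comes closest to leaving it out, at -0.50 to 0.06.

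The balance between the 2 guide strands was read as a share within each library, which no scaling between libraries changes. miR-222 made up 34.9% of the reads of miR-221 plus miR-222 in the non-trained control library (18671 of 53443 reads, 95% Wilson interval 34.5 to 35.3%) and 36.3% in the non-trained NIPP1* library (35.9 to 36.7%). The trained control libraries were at 35.1%, 37.7% and 38.8%, and the trained NIPP1* libraries at 39.2% and 38.9%. By the labels the trained NIPP1* libraries were the highest, whereas the grouping of the tables makes these libraries (6 and 7) trained controls. One trained library, library 3, lay below the non-trained NIPP1* library, so trained and non-trained libraries overlapped either way. Over the 7 libraries the share was 37.3% ± 1.83 (SD), equal to 1.55 to 1.86 reads of miR-221 for each read of miR-222. These counting intervals are narrow beside the spread between libraries of 1 group, and no test was made.

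The arms of each hairpin were read very unequally. miR-221* made up 6.16% of the reads of its hairpin in library 1 and 6.50% in library 2, between 6.65% and 6.91% in the trained control libraries, and 7.95% and 7.41% in the trained NIPP1* libraries, which were the highest by the labels and are trained controls by the tables. On average 13.6 ± 1.2 reads of miR-221 (SD, n = 7) were found for each read of miR-221*. The bias was steeper in Mir222, where miR-222* made up between 1.01% and 1.35% of the reads and 87.2 ± 8.07 reads of miR-222 (SD, n = 7) stood against each read of miR-222*. The highest share of miR-222* (1.35%, interval 1.18 to 1.53%) and the lowest (1.01%, 0.87 to 1.18%) were both in trained control libraries.

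**Figure D4:**
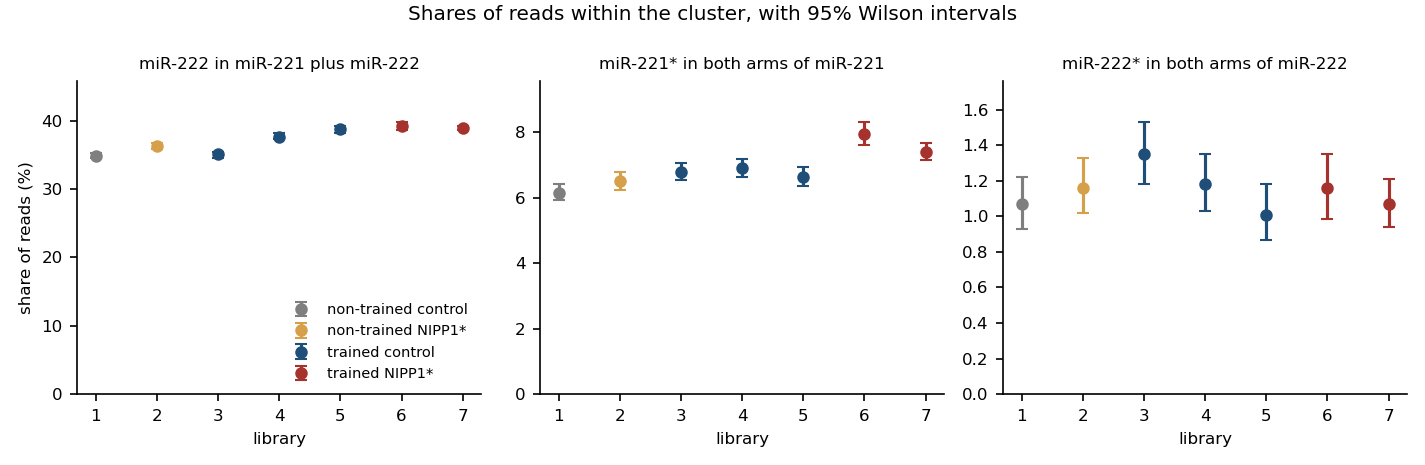
Share of reads (%) by library, from left to right for miR-222 in miR-221 plus miR-222, miR-221* in both arms of Mir221, and miR-222* in both arms of Mir222, with 95% Wilson intervals for counting error. The miR-222 share runs from 34.9% in library 1 to 39.2% in library 6, the miR-221* share from 6.16% to 7.95% in the same libraries, and the miR-222* share from 1.01% to 1.35%.

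The 4 products together took 0.490% to 0.629% of the miRNA reads of a library. On the X chromosome, which holds loci of 95 measured miRNAs, they took between 8.69% and 13.6% of the reads of that set, with let-7f, at 40520 RPM, the one miRNA above them (let-7f and miR-19b also have a copy on another chromosome). miR-221 and miR-222 came next in the set, ahead of miR-19b at 798.8 RPM. Of the 49 other X-linked miRNAs tested, 0 passed the test in any of the 6 comparisons. For trained against non-trained over both genotypes, 17 were higher and 32 lower, with a median log2 fold change of -0.08 beside -0.05 over all tested miRNAs. For trained NIPP1* against trained control, 33 were higher and 16 lower, with a median of 0.09 beside 0.04. Under the grouping of the tables the counts were 16 higher and 33 lower, with a median of -0.09 beside -0.04.

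The libraries are of whole tissue, in which fewer cells of a type and less RNA per cell cannot be told apart. miRNAs of the vessel wall and endothelium, miR-126-3p, miR-126-5p, miR-143 and miR-145, summed to between 14790 and 18450 RPM. The sum was lowest in the non-trained libraries (14820 and 14790 RPM), where miR-221 was highest, and highest in library 5. It followed its largest member, miR-143 (8707 and 8817 RPM in the non-trained libraries and 12880 RPM in library 5), whereas miR-126-3p of endothelium was at 4804 and 4754 RPM in the non-trained libraries and lowest in libraries 4 and 5 (4252 and 4300 RPM). All 4 passed the minimum of reads and 0 passed the test in any comparison; for trained against non-trained 2 were higher and 2 lower, with a median of 0.13. miRNAs of leukocytes and microglia summed to between 857.7 and 997.4 RPM, with 5 tested, 3 higher and 2 lower and a median of 0.03. Those of red blood cells (miR-144 and miR-451, with miR-486 not joined to a sequence) summed to between 61.9 RPM in library 4 and 250.9 RPM in library 7, and those of choroid plexus and ependyma to between 1051 RPM in library 5 and 3306 RPM in library 3. Their medians for trained against non-trained were 0.47 over 2 and -0.12 over 4 tested miRNAs, and 0.01 over the 5 neuronal ones. Both miRNAs of red blood cells were higher, and all 4 tested miRNAs of choroid plexus and ependyma were lower, with values between -0.22 and -0.06. Lower was the common direction, with 188 of the 476 tested miRNAs higher and a median of -0.05. In library 6, where miR-221 was lowest, the sum for choroid plexus and ependyma was 2901 RPM. For trained NIPP1* against trained control all 4 were higher while miR-221 was lower, and the grouping of the tables turns both. For the muscle, liver and pituitary miRNAs the median for trained against non-trained was 0.03 over 4. None of these miRNAs passed the test in any comparison, and the part of these cell types in the level of miR-221 was not tested.

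miR-132, miR-134 and both arms of miR-212, which are known to respond to neuronal activity, were examined beside the cluster. miR-132, which is induced through CREB, was at 256.9 and 297.6 RPM in the non-trained libraries and between 281.1 and 366.7 RPM in the trained libraries. miR-212-3p, made from the same transcript as miR-132, was at 92.46 and 115.8 RPM in the non-trained libraries and between 118.1 and 140.1 RPM in the trained ones, so all 5 trained libraries lay above both, as they did for 16 of the 476 tested miRNAs (3.36%). miR-212-5p was at 320.4 and 380.5 RPM against 294.4 to 428.4 RPM, and miR-134, which acts in dendrites, at 215.7 and 196.8 RPM against 162.2 to 206.6 RPM. None of the 4 passed the test in any of the 6 comparisons. For trained against non-trained, 3 were higher and 1 was lower, from -0.16 for miR-134 to 0.33 for miR-212-3p, with a median of 0.12.

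Over the 7 libraries miR-221 and miR-222 had a Pearson r of 0.70 and a Spearman rho of 0.57 in log2(RPM + 0.5). Without libraries 1 and 6, the farthest from the median of miR-221, r was -0.02, and without library 6 alone it was -0.07, so the relation rested on library 6. Each of these values is a description over 7 points that share depth and scaling. The r of miR-221 with its own 5′ arm product was 0.56, and that of miR-222 with miR-222* was 0.35. Leaving out 1 library at a time, the first ran from 0.42 to 0.69 and the second from -0.21 without library 6 to 0.66 without library 3, so the sign of the second rested on library 6 as well.

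The 5 miRNAs most like miR-221 among 318 with a mean of at least 100 reads were miR-329* (r = 0.97, rho = 0.96), miR-409-3p (0.94, 0.75), miR-381 (0.93, 0.89), miR-300* (0.93, 0.96) and miR-434-5p (0.92, 0.96). All 5 lie on chromosome 12, which carries the large imprinted miRNA cluster of the Dlk1-Dio3 region and holds 71 of the 318 miRNAs compared (22.3%). The median r with miR-221 was 0.21 over those 71 and 0.07 over all 318. The set depends on scaling: with TMM factors 3 of the 5 remained among the highest 5, all 3 on chromosome 12, while miR-381 took place 6 (r = 0.92) and miR-300* place 8 (r = 0.87), and the other two then among the highest were not on that chromosome. miR-381 was at 1007 and 1086 RPM in the non-trained libraries, 1022, 850.6 and 812.7 RPM in the trained control libraries, and 724.7 and 950.3 RPM in the trained NIPP1* libraries, so library 6 was its lowest, as it was for miR-221. Without libraries 1 and 6 the r was 0.83, 0.55, 0.97, 0.97 and 0.85 in the same order.

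The miRNAs most like miR-222 were a different mix: miR-125b-2-3p (r = 0.89, rho = 0.86), miR-361* (0.84, 0.56), miR-425 (0.83, 0.86), miR-491 (0.82, 0.89) and miR-409-3p (0.79, 0.64). They lie on chromosomes 16, X, 9, 4 and 12. With TMM factors 3 of these remained among the highest 5, while miR-409-3p took place 6 and miR-491 place 9. miR-409-3p was in both sets, and its r with miR-222 was 0.14 without library 6. Without libraries 6 and 7, the farthest from the median of miR-222, the r was 0.65, 0.29, 0.39, 0.80 and 0.38 in the same order. In the order of likeness to miR-222, miR-221 took place 11, and in that to miR-221, miR-222 took place 28.

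**Figure D5:**
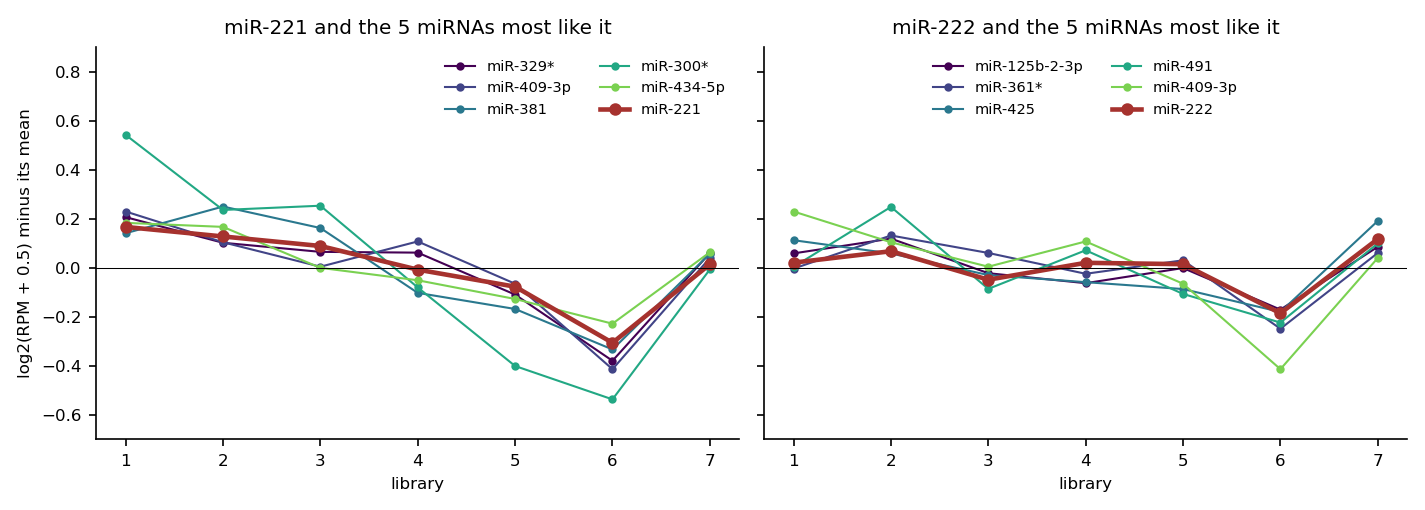
Log2(RPM + 0.5) minus its mean over the 7 libraries, for miR-221 (left) and miR-222 (right) in red with the 5 miRNAs most like each; lines join the values of 1 miRNA and the libraries have no order. In library 6 all the miRNAs drawn are at their lowest, and miR-300* spreads widest, from 87.28 RPM in library 1 to 41.04 RPM in library 6.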

How the data were processed

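Small RNA of pooled mouse hippocampus was sequenced in 7 libraries. Per the labels and the methods, the authors sequenced TruSeq libraries, mapped the inserts between 19 and 26 nt long to NCBI37/mm9 with ncPRO-seq and bowtie, and deposited 1 value per mature locus, a percent of all miRNA reads in that library. CASAVA 1.7.0, Bowtie and bedtools are named in the submitters' processing notes. The deposited tables of comparisons hold, as signal, the authors' means of reads divided by size factors per group, which were used for names and to check the grouping. Their fold changes and p-values are the authors' own comparisons and were not used, nor were 2 columns of means named only by letters.

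Percentages were written as reads per 1000000 miRNA reads, and loci with one mature sequence were averaged. The 806 loci gave 756 sequences, of which 646 were joined to a name in the tables by hairpin and reads or by reads alone. The 110 others reached at most 2.3 RPM. Whole reads recovered from the steps of low values (99.1% to 99.7% of low values came out whole within a tolerance of 0.25 reads) gave library totals of 7285261 to 10017748. Amplified reads are not independent molecules, so Wilson and exact intervals cover counting error only.

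The 4 groups of 1, 1, 3 and 2 libraries entered one limma model (lmFit, contrasts, eBayes with trend) of log2(RPM + 0.5), over the 476 miRNAs that averaged 10 reads or more, adjusted over all 476 by Benjamini-Hochberg, with calls at an adjusted p under 0.05. A fold change on this scale understates that of low miRNAs. Both non-trained groups hold 1 library, so the trained groups alone supplied the spread. For the non-trained libraries a log2 ratio was given a 95% interval from the exact conditional binomial test, among miRNAs averaging 100 reads or more. The code of the model was run on simulated counts with changes far larger than the members' differences, which is no test of differences this small. Alternatives were TMM and DESeq2 scaling, edgeR and DESeq2 tests on recovered reads, other minimums of reads and pseudocounts, the libraries of the compared groups alone, the grouping of the authors' tables and leaving out 1 library at a time, where each group in the comparison kept a library.

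The members and the lists (forebrain neurons, vessel wall and endothelium, red blood cells, leukocytes and microglia, choroid plexus and ependyma, muscle with liver and pituitary, activity-regulated, with both arms standing for miR-212, and X-linked miRNAs) were chosen with earlier results of these data known. Named are the products of both hairpins, miRNAs with their seed, the 5 most like miR-221 and miR-222 by Pearson's r, the neighbours in level and the lists' members. The 5 target genes were chosen from textbook knowledge after the values were seen, and let-7f and miR-19b for their place on the X chromosome. Mature and hairpin sequences come from the mm9 genome and were compared with RefSeq (GRCm38.p6), and 3′ UTRs come from GENCODE M1. Software was R 4.3.3 with DESeq2 1.42.0, edgeR 4.0.16 and limma 3.58.1, Python 3.11.15 with pandas 2.3.3, scipy 1.17.1 and numpy 2.4.6, and RNAfold 2.7.2.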

Additional observations from a re-analysis of the deposited data

How the results depend on the processing

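None of the 24 differences of the members in the 6 tested comparisons was called by limma, nor under any of their 364 alternative fits, whose lowest adjusted p was 0.342. The direction was kept in 303 of these fits and was the other in 61, the largest of them 0.19 for miR-221, and 6 differences kept their direction throughout, among them the training differences of miR-221 in controls, in NIPP1* mice and over both. No fit of a training difference left out a non-trained library of that comparison. The cause of the turned signs was not tested. With TMM scaling, training in controls was 0.076 for miR-221* and 0.065 for miR-222 and training in NIPP1* mice 0.0054 for miR-221*. It was 0.041 for miR-221* and 0.0296 for miR-222* over both genotypes, while trained NIPP1* against trained control was -0.031 for miR-221* and NIPP1* against control over both states -0.032 for miR-222 and -0.0068 for miR-222*. With DESeq2's size factors the same comparisons gave 0.0795, 0.069, 0.023, 0.051 and 0.0398, with 0.0035 for miR-222 over both genotypes, then -0.0090, and -0.017 for miR-222. The edgeR fit gave 0.077, 0.066, 0.0094, 0.043, 0.035, -0.028, -0.028 and -0.0077 in the order given for TMM. The DESeq2 fit gave 0.0804, 0.0699, 0.027, 0.054 and 0.046, with 0.0078 for miR-222 over both genotypes, then -0.0058, and -0.014 for miR-222.

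Under the grouping of the authors' tables, trained NIPP1* against trained control was 0.15 for miR-221, -0.043 for miR-221*, 0.0295 for miR-222 and 0.11 for miR-222*. NIPP1* against control over both states was 0.054 for miR-221, the difference of the training effect 0.19 for miR-221, and training in controls 0.029 for miR-221*. Leaving out 1 library at a time, training in controls ran from -0.0602 to 0.041 for miR-221*, and training in NIPP1* mice from -0.12 to 0.089 for miR-221* and from -0.25 to 0.0497 for miR-222. Trained against non-trained, with libraries 3 to 7 left out in turn here and in the other comparisons over all 4 groups, ran from -0.069 to 0.037 for miR-221*, -0.14 to 0.012 for miR-222 and -0.072 to 0.022 for miR-222*. Trained NIPP1* against trained control ran from -0.31 to 0.013 for miR-221, -0.062 to 0.15 for miR-221* and -0.18 to 0.12 for miR-222. Over both training states it ran from -0.0081 to 0.10 for miR-221*, -0.067 to 0.084 for miR-222 and -0.015 to 0.079 for miR-222*. The difference of the training effect ran from -0.27 to 0.052 for miR-221, -0.11 to 0.10 for miR-221* and -0.23 to 0.075 for miR-222. Where a group was left with 1 library, that library was assumed to vary like the others.

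Over all miRNAs, the DESeq2 test called 1 for training in controls, 1 for trained NIPP1* against trained control, 2 for training in NIPP1* mice, 1 for trained against non-trained and 2 for the difference of the training effect. Past a log2 ratio of 1 between the non-trained libraries there were 14 miRNAs when 10 reads on average were required, and 1 when 1000 were. The share of miR-222 in the guide strands, averaged over 7 libraries, moved by less than its SD without any 1 library. Groups of 1 to 3 libraries, pooled tissue and an unsettled assignment of the trained libraries limit every comparison, and depth limits miR-222* most.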
